A study of Sus scrofa with 6 samples.

Results

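Solute carriers were read on 6 pig uterus arrays as the probe sets whose only gene symbol in the array annotation starts with SLC and a digit, or with SLCO. The rule used names alone and gave 184 of the 23999 probe sets tested, for 123 of the 6765 genes named on the array. Of these, 181 probe sets stand for carriers, and 3 are named after a carrier without being one. Another 5 probe sets that share a carrier symbol with a second gene were left out. The tissue came from 3 crossbred Landrace x Large White sows that had been inseminated by laparoscopy. The oviduct on 1 side was given spermatozoa and the opposite oviduct diluent only, so that on day 6 1 uterine horn of each sow held embryos at the blastocyst stage and the contralateral horn held oocytes. Epithelial cells were scraped from the part of each horn next to the oviduct, and RNA of each horn went on its own array, giving 3 arrays of horns with embryos and 3 of horns with oocytes. All horns came from the same kind of animal, and both sides had the same operation apart from the spermatozoa. These were given only on the side with embryos, so effects of spermatozoa and of embryos cannot be told apart. The horn with oocytes belongs to a sow that also carries embryos, so it does not stand for a non-pregnant uterus. The question was whether the embryo alters transcripts locally, in the horn that holds it.

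Solute carriers are the membrane proteins that move sugars, amino acids, ions, metals, nucleosides, nucleotides, vitamins and organic anions across the plasma membrane and the membranes of organelles. Before attachment the pig blastocyst floats in uterine fluid, and the carriers of the uterine epithelium take part in setting what that fluid holds. Members of the SLCO branch, the organic anion transporting polypeptides, carry bile acids, steroid conjugates and thyroid hormones, and the SLC25 branch works in the mitochondrial inner membrane.

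Markers of epithelium (EPCAM, CDH1, KRT8, KRT18 and KRT19) were all measured, all 5 above the median signal of the array, and their summed signal was 7356 to 10036 with embryos and 7547 to 9825 with oocytes. Stroma markers were also present, 4 of 5 measured, with sums of 2505 to 4741 with embryos and 2515 to 5406 with oocytes, and so were those of smooth muscle, 4 of 5 measured, with sums of 572 to 1365 with embryos and 458 to 2141 with oocytes. Sow 1 had the highest sums for stroma and smooth muscle in both horns. Of the leukocyte markers 4 of 5 were measured and 0 lay above the median signal, with sums of 63.2 to 87.1 with embryos and 51.1 to 111 with oocytes. The 5′ to 3′ ratio of the GAPDH control, a sign of RNA integrity, was 0.243, 0.130 and 0.199 with embryos in sows 1, 2 and 3, against 0.355, 0.200 and 0.226 with oocytes, which is lower with embryos in every sow. The actin control gave 0.149, 0.0577 and 0.104 with embryos, against 0.219, 0.105 and 0.118 with oocytes, again lower with embryos in every sow. The part of RNA integrity in the differences below was not tested. In scraped tissue, fewer cells of a type and less RNA per cell cannot be told apart.

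No solute carrier passed the test of embryos against oocytes after adjustment. With limma on log2 signals and Benjamini-Hochberg adjustment over all probe sets, 0 of the 184 members had an adjusted p under 0.05, against 0% of all probe sets, and the smallest adjusted p of a member was 1.00. With the sow as a block the count was again 0, against 0% of all probe sets, and the smallest adjusted p of a member was 0.183. At an unadjusted p under 0.05, 0 members were higher with embryos (0%), against 1.3% of all probe sets, and 4 were lower (2.17%), against 1.59% of all. The sow as a block raised this count of 4 to 19. Of those, 6 were higher with embryos (3.26%), against 3.75% of all probe sets, and 13 were lower (7.07%), against 4.95% of all. The 6 read SLC1A5, SLC25A4, SLC27A6, SLC30A3, SLC35F5 and SLC39A5. The 13 read 10 genes, SLCO1A2, SLC1A1, SLC3A1, SLC15A2, SLC27A6, SLC31A2, SLC35F5, SLC38A1, SLC38A9 and SLC44A2, and 6 of them are on the list of altered transcripts that the study drew up from these same arrays. Leaving out the array of the embryo horn of sow 1 gave 10 members at an unadjusted p under 0.05 (5.43%), against 4.32% of all probe sets. Leaving out that of the oocyte horn of sow 3 gave 2 (1.09%), against 3.11% of all.

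Differences between the horns were mostly small and ran both ways. The median log2 difference, embryos minus oocytes, was -0.028 over the 184 members and 0.005 over all probe sets, with 87 members higher and 97 lower with embryos. Within sows the median over the members was -0.037, -0.067 and 0.055. All 3 arrays with embryos lay above all 3 with oocytes for 6 members (3.26%), against 4.03% of all probe sets, and below them for 8 (4.35%), against 3.98%. The horn with embryos was higher in all 3 sows for 20 members (10.9%), against 14.9% of all probe sets, and lower in all 3 for 29 (15.8%), against 14.8%. The array-wide median of the mean signal was 33.9 units, and 97 members exceeded it. Among these 97 the difference was under 0.25 in size for 78 and over 0.5 for 6, and the 95% interval lay within 1 log2 unit on either side of 0 for 82. It lay within 0.5 for 27, and for 65 with the sow as a block. The 87 dimmer members bound little, with a median interval of 1.52 on either side of the estimate, against 0.49 for the brighter ones.

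**Figure D1:**
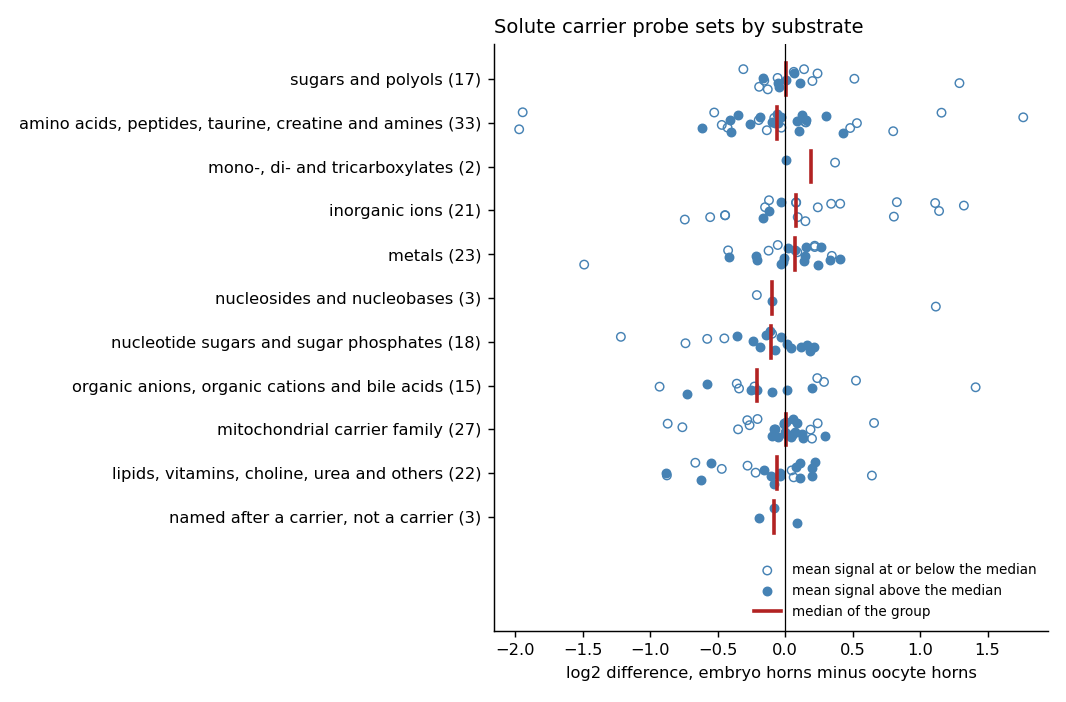
Log2 difference between horns with embryos and horns with oocytes (horizontal axis) for all 184 solute carrier probe sets, one point each, in rows by substrate with the number of probe sets in brackets; filled points exceed the array-wide median signal and red bars are group medians. Filled points mostly lie near 0, with the lowest at -0.88 in the row of lipids and vitamins and at -0.73 in that of organic anions. The points far from 0, out to -1.97 and 1.77, are mostly open ones.

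The smallest unadjusted p of all members was that of SLCO1A2, an organic anion transporting polypeptide. Probe sets of a gene are lettered A, B and so on from the brightest to the dimmest, and values given without a letter are those of probe set A. Probe set A of SLCO1A2 gave signals of 100.1, 59.5 and 75.8 with embryos in sows 1, 2 and 3, against 159.8, 110.3 and 115 with oocytes. Every horn with embryos lay below every horn with oocytes. The log2 difference was -0.73 (standard error 0.23, unadjusted p = 0.0129 and adjusted p = 1.00 from limma), and -0.69, -0.88 and -0.61 within the sows. With the sow as a block the unadjusted p was 0.000163 and the adjusted p 0.183, from limma. The study lists this probe set among its altered transcripts and chose it on these same arrays, so its direction here is no independent evidence. By quantitative PCR the paper also reports a significant decrease of SLCO1A2 in horns with blastocysts. It does not say whether those were the sows of the arrays, and the PCR values were not analysed here. The other probe sets of the gene were dim. Probe set B averaged 15.1 ± 2.80 with embryos and 19.0 ± 3.61 with oocytes (SD, n = 3 each, as for all means given here) and overlapped between the groups. Probe set C averaged 5.17 ± 2.31 with embryos and 9.37 ± 2.71 with oocytes, and its normalized values did not overlap.

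Other carriers of organic ions overlapped between the groups. SLCO2B1, which takes up steroid sulphates, averaged 50.3 ± 20.9 with embryos and 52.8 ± 16.8 with oocytes. SLC22A5, the carnitine carrier OCTN2, averaged 54.2 ± 9.62 with embryos and 48.1 ± 15.1 with oocytes. Over all 15 probe sets of organic anion, organic cation and bile acid carriers 6 were higher and 9 lower with embryos, with a median of -0.21, and SLCO1A2 was the only gene of the group at an unadjusted p under 0.05.

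SLC35F5, a member of the nucleotide sugar carrier family whose substrate is not established, was read by 3 probe sets that disagree. Probe set B gave 117, 109.9 and 99.1 with embryos, against 129, 135 and 151 with oocytes. These values do not overlap. The log2 difference was -0.36 (standard error 0.15, unadjusted p = 0.0440 and adjusted p = 1.00 from limma). Probe set C gave 27.1, 18 and 22.9 with embryos, against 43.0, 26.7 and 44.2 with oocytes, a difference of -0.74 (standard error 0.30, unadjusted p = 0.0348 from limma). Both are on the study's list, chosen on these arrays. The brightest probe set of the gene, probe set A, ran the other way in every sow, with 317, 405 and 416 with embryos, against 266, 324 and 391 with oocytes (0.22, standard error 0.17). For A, B and C the unadjusted p was 0.027, 0.0171 and 0.0152 with the sow as a block (adjusted p = 0.505, 0.469 and 0.468 from limma).

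The other carriers of the nucleotide sugar family, many of which bring nucleotide sugars into the Golgi for glycosylation, mostly showed small differences. SLC35D2 averaged 141 ± 19.5 with embryos and 123 ± 1.82 with oocytes (log2 difference 0.18, standard error 0.16), with no overlap. SLC35B1, an exchanger of ATP and ADP in the endoplasmic reticulum, averaged 254 ± 86.6 with embryos and 291 ± 50.4 with oocytes, higher with embryos in sow 3 and lower in sows 1 and 2. SLC35A3, the UDP-N-acetylglucosamine carrier, averaged 201 ± 55.2 with embryos and 222 ± 69.9 with oocytes. Together with the glucose 6-phosphate carrier SLC37A4 the group holds 18 probe sets, 6 higher and 12 lower with embryos, with a median of -0.11.

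Among metal carriers, SLC31A2, which moves copper out of endosomes and lysosomes, had a probe set that was lower with embryos in every sow. Probe set B gave 272, 244 and 462 with embryos, against 394, 327 and 564 with oocytes. The groups overlap, since sow 3 was high in both horns. The log2 difference was -0.42 (standard error 0.27, unadjusted p = 0.159 from limma), and the unadjusted p was 0.000661 with the sow as a block (adjusted p = 0.244 from limma). This probe set too is on the study's list. The gene's other probe set, A, gave 1161, 1339.5 and 2258 with embryos, against 1264, 1314 and 2212 with oocytes, a difference of -0.018. SLC31A1, the copper carrier of the plasma membrane, averaged 224 ± 35.3 with embryos and 199.5 ± 28.4 with oocytes.

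Zinc carriers of the SLC30 and SLC39 families were higher with embryos at 8 of 14 probe sets and lower at 6, and 0 passed the test. Above the median signal 7 of 10 were higher (70.0%), against 51.4% of all probe sets above it, a count made after the values had been seen. SLC39A5, a zinc importer, gave at probe set A 69.2, 46.4 and 65.1 with embryos, against 43.1, 44.4 and 46.2 with oocytes (0.41, standard error 0.21, unadjusted p = 0.0878 and 0.0499 with the sow as a block, from limma). The groups do not overlap, but only by 46.4 against 46.2. At the gene's dim probe set B they overlapped, with a difference of -0.12 (standard error 0.44). SLC30A3, which loads zinc into vesicles, gave 76.8, 99.7 and 81.9 with embryos, against 57.0, 92.5 and 59.2 with oocytes at probe set A (0.33, standard error 0.24, unadjusted p = 0.208 and 0.0421 with the sow as a block, from limma). Its dim probe set B was lower with embryos in every sow (-0.42, standard error 0.39). For SLC39A7, which releases zinc from the secretory pathway, the means were 283 ± 10.4 with embryos and 256 ± 26.4 with oocytes. SLC39A2 lay on the other side, at 120.0 ± 38.7 with embryos and 137 ± 35.8 with oocytes, and SLC30A5 had differences of 0.27, -0.028 and -0.055 at probe sets A, B and C, the last of them dim. SLC11A2, the iron carrier DMT1, had 0.018 at its brightest probe set, A, and -0.21 at B. In all, 13 of 23 metal carrier probe sets were higher and 10 lower with embryos, with a median of 0.073.

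Several amino acid and peptide carriers were lower with embryos in every sow, mostly by small amounts. Of the 33 probe sets of the class 8 were lower in every sow (24.2%), against 14.8% of all probe sets. Another 5 were higher in every sow (15.2%), against 14.9% of all. SLC38A1, a sodium-coupled glutamine carrier, was lower with embryos in every sow at all 3 of its probe sets. Probe set B, on the study's list, gave 325, 247 and 392 with embryos, against 399.9, 295 and 452 with oocytes (-0.26, standard error 0.22). Its unadjusted p was 0.265, and 0.00947 with the sow as a block (adjusted p = 0.427 with the block, from limma). Probe set C differed by -0.40 and the brightest, A, by -0.10, with an unadjusted p of 0.0108 and 0.219 with the block, from limma. SLC15A2, the peptide carrier PEPT2, had differences of -0.41, -0.18 and -0.059 at its probe sets C, A and B, with B higher in sow 2 (0.032). The largest of these, at C, is the one on the study's list and had means of 55.5 ± 15.4 with embryos and 73.3 ± 18.1 with oocytes. Its unadjusted p was 0.0257 with the block (adjusted p = 0.505 from limma). SLC38A9, a lysosomal arginine sensor, averaged 83.4 ± 27.1 with embryos and 106 ± 34.5 with oocytes at probe set A (-0.35) and was lower there with embryos in every sow, while the dim probe set B differed by -0.14 and was higher with embryos in sow 3. At A the unadjusted p was 0.021 with the block (adjusted p = 0.484 from limma).

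SLC1A5, the glutamine exchanger ASCT2, had higher values with embryos. It gave 94.4, 59.1 and 102 with embryos, against 66.9, 52.8 and 65 with oocytes. The horn with embryos was higher in all 3 sows, and the groups overlap through sow 2 (0.43, standard error 0.23, unadjusted p = 0.10 and 0.0175 with the sow as a block, adjusted p = 0.471 with the block, from limma). SLC1A1, the glutamate carrier EAAT3, had no probe set above the median signal. Its brightest, A, gave 38.2, 36.8 and 42.1 with embryos, against 27.6, 28.2 and 27.4 with oocytes (0.48, standard error 0.23), while probe set D gave 1.1, 1.6 and 3.2 with embryos, against 7.4, 5.6 and 7.7 with oocytes (-1.97, standard error 0.67, unadjusted p = 0.0168 from limma). Neither probe set overlaps between the groups, and their directions are opposite. The other 3 probe sets of the gene overlap.

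Other carriers of this class had similar means in both groups. The cationic amino acid carrier SLC7A1 averaged 253 ± 21.8 with embryos and 265 ± 6.66 with oocytes (-0.075, 95% interval -0.36 to 0.21). SLC3A2, the heavy chain that brings several amino acid exchangers to the membrane, averaged 81.2 ± 4.77 with embryos and 74.7 ± 12 with oocytes, and SLC7A7, one of its light chains, 55.5 ± 2.42 with embryos and 52.7 ± 13.7 with oocytes. SLC6A8, the creatine carrier, averaged 201 ± 30.6 with embryos and 208 ± 32 with oocytes. SLC1A4 was dim, at 16.3 ± 0.458 with embryos and 17.5 ± 4.64 with oocytes. Of the 33 probe sets in the class 13 were higher and 20 lower with embryos, with a median of -0.059. With the sow as a block 1 was higher (3.03%), against 3.75% of all probe sets, and 6 were lower (18.2%), against 4.95% of all, at an unadjusted p under 0.05. Of these 6, 3 belong to SLC38A1 and SLC15A2. The rest were the dim probe set D of SLC1A1, B of SLC3A1 and A of SLC38A9. The brighter probe sets A of SLC1A1 (0.48) and of SLC3A1 (0.086) were higher with embryos.

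**Figure D2:**
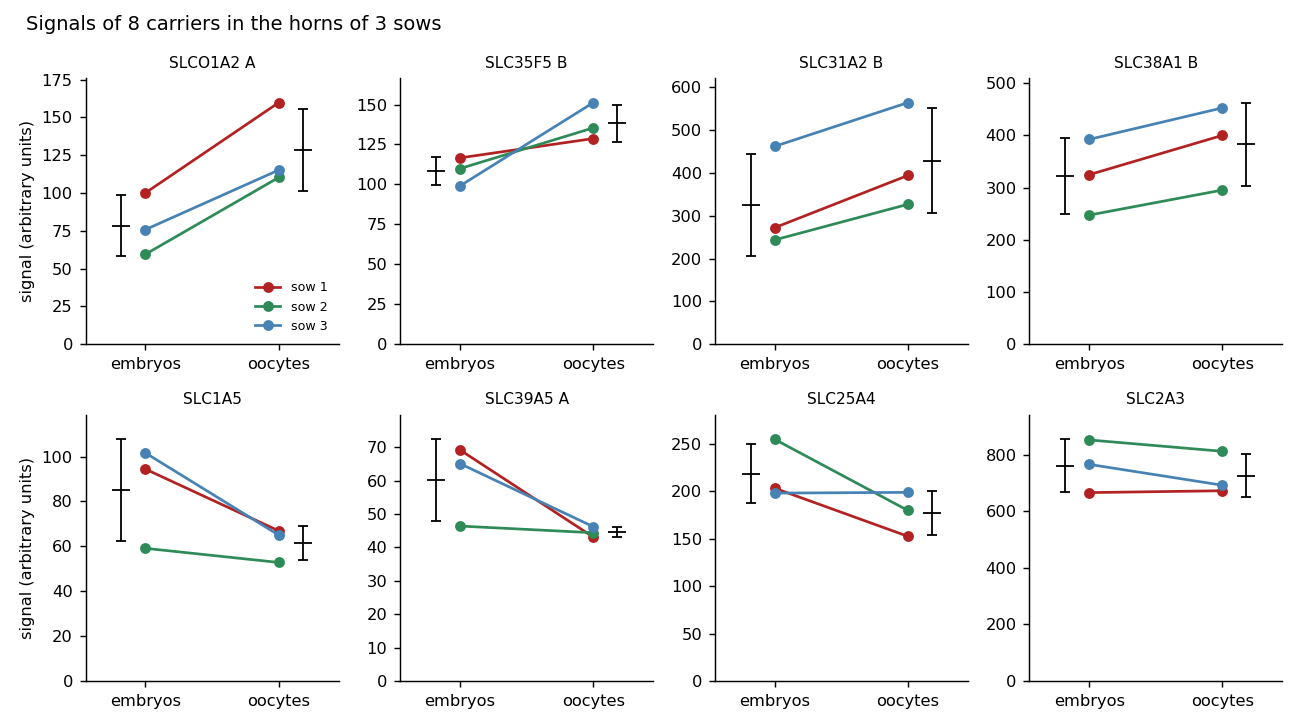
Signals (vertical axes, arbitrary units, from 0) of 8 carrier probe sets in the horns with embryos and with oocytes, with a coloured line joining the horns of each sow and black bars for the mean and SD of 3 horns. SLCO1A2, SLC35F5, SLC31A2 and SLC38A1 (upper row) slope up towards the oocytes in all 3 sows; SLC1A5 and SLC39A5 slope down in all 3, SLC25A4 in sows 1 and 2, and SLC2A3 is nearly level.

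Carriers of glucose and other sugars differed little between horns. SLC2A1, the widely expressed glucose carrier GLUT1, gave 94.9, 106 and 108 with embryos, against 126, 133 and 91.5 with oocytes (-0.17, 95% interval -0.60 to 0.26), lower with embryos in sows 1 and 2 and higher in sow 3. SLC2A3, the high-affinity carrier GLUT3, averaged 762 ± 93.3 with embryos and 726 ± 75.6 with oocytes (0.067, 95% interval -0.22 to 0.35). SLC5A1, the sodium-coupled glucose carrier SGLT1, averaged 510.1 ± 23.8 with embryos and 527 ± 58.1 with oocytes (-0.044, 95% interval -0.34 to 0.26). SLC2A8 averaged 169.6 ± 20.5 with embryos and 176 ± 30.7 with oocytes. The insulin-regulated carrier SLC2A4 was dim at its brightest probe set, at 15.3 ± 11.5 with embryos and 13.4 ± 5.41 with oocytes. Of the 17 probe sets in the group 9 were higher and 8 lower with embryos, with a median of 0.003. With limma 0 had an unadjusted p under 0.05 without or with the sow as a block. Over all probe sets the shares were 2.88% and 8.7%, so a count of 0 among 17 says little.

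Mitochondrial carriers also differed little, with a median absolute difference of 0.098, against 0.194 over all 184 members. The adenine nucleotide translocases exchange ATP for ADP across the inner membrane. SLC25A6 gave 4121, 4572 and 4407 with embryos, against 4306, 4632 and 4161 with oocytes (0.011, 95% interval -0.22 to 0.24), and SLC25A5 gave 1094, 1136 and 909 with embryos, against 1202, 1057 and 891 with oocytes (0.001, 95% interval -0.34 to 0.34). The third translocase, SLC25A4, gave 203, 255 and 198 with embryos, against 153, 179.9 and 199 with oocytes (0.30, standard error 0.16, unadjusted p = 0.0928 and 0.0268 with the sow as a block, adjusted p = 0.505 with the block, from limma). Its horns with embryos were higher in sows 1 and 2 and level in sow 3. SLC25A3, the phosphate carrier, averaged 2317 ± 75.1 with embryos and 2409 ± 26.7 with oocytes (-0.050, 95% interval -0.27 to 0.17), and SLC25A1, the citrate carrier, 548 ± 95.9 with embryos and 588 ± 127 with oocytes. SLC25A37, which brings iron into mitochondria, averaged 36.6 ± 5.58 with embryos and 33.1 ± 0.954 with oocytes at its probe set B (0.13) and differed by 0.003 at A. SLC25A33, a pyrimidine nucleotide carrier, averaged 336 ± 22.6 with embryos and 320.1 ± 48.1 with oocytes, and SLC25A38, a glycine carrier, 242 ± 69.2 with embryos and 217 ± 36.1 with oocytes. Over the family 15 of 27 probe sets were higher and 12 lower with embryos, with a median of 0.003.

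Inorganic ion carriers were mostly dim, with 3 of 21 probe sets above the median signal. SLC34A2, the phosphate carrier of epithelia, averaged 245 ± 83.9 with embryos and 258 ± 40.2 with oocytes (-0.12, 95% interval -0.64 to 0.40). SLC26A11 averaged 59.7 ± 6.04 with embryos and 66.4 ± 3.45 with oocytes, and SLC41A1, a magnesium carrier, 50.3 ± 5.07 with embryos and 51.9 ± 12 with oocytes. SLC4A2, the chloride and bicarbonate exchanger AE2, gave 6.60, 13.2 and 13.9 with embryos, against 3.10, 5.90 and 5.90 with oocytes, higher with embryos in every sow at a dim level (1.14, standard error 0.60). SLC4A4 lay at 4.23 ± 3.23 with embryos and 4.47 ± 0.513 with oocytes. Of the 2 carboxylate carrier probe sets, SLC16A13 averaged 64.4 ± 14.2 with embryos and 62.9 ± 5.73 with oocytes, and SLC16A3, the lactate carrier MCT4, was dim, at 16.6 ± 1.15 with embryos and 12.8 ± 1.77 with oocytes.

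Lipid, choline and vitamin carriers gave 9 probe sets higher and 13 lower with embryos of 22, with a median of -0.062. SLC44A4, a carrier of thiamine pyrophosphate, averaged 212 ± 25.4 with embryos and 225 ± 38.4 with oocytes. SLC46A1, the folate carrier, averaged 65.4 ± 10.5 with embryos and 68.0 ± 18.2 with oocytes, and the riboflavin carrier SLC52A2 87.3 ± 5.08 with embryos and 82.6 ± 24.3 with oocytes. SLC33A1, which carries acetyl-CoA into the endoplasmic reticulum, had differences of 0.082, -0.16 and -0.037 at probe sets A, B and C, and of -0.47 (standard error 0.75) at the dim probe set D. Of the genes named after a carrier, SLC9A3R1, a scaffold of ion carriers, averaged 660.5 ± 30.3 with embryos and 622 ± 49.9 with oocytes, SLC9A3R2 averaged 70.9 ± 15.4 with embryos and 74.9 ± 15.1 with oocytes, and SLC2A4RG, a transcriptional regulator, 233 ± 56.4 with embryos and 262 ± 39.8 with oocytes.

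Probe sets of one gene did not always point in the same direction. More than 1 probe set was present for 41 genes, which hold 102 of the 184 probe sets. At least 2 above the median signal were found for 15 genes, and in 11 of these they had opposite signs. The share of such genes over the whole array was not counted. Some of these differences lay near 0, as for SLC39A1 (-0.012 and 0.073), so the count says little about the carriers. In 5 genes they differed by over 0.5 as well: SLC27A6, SLC35F5, SLC3A1, SLC44A2 and SLCO3A1.

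SLC27A6, which activates and takes up long-chain fatty acids, had its brightest probe set higher with embryos and its other probe sets lower. Probe set A gave 1192, 1242 and 805 with embryos, against 1006, 894 and 839 with oocytes (0.22, standard error 0.18). Probe set B gave 209.5, 86.2 and 116 with embryos, against 306, 152 and 139 with oocytes (-0.55, standard error 0.39). Probe set C gave 66.3, 30.1 and 33.1 with embryos, against 84.9, 54.2 and 52.1 with oocytes (-0.63, standard error 0.32). The last 2 were lower with embryos in every sow, with groups that overlap through the high values of sow 1. For A, B and C the unadjusted p was 0.0427, 0.00126 and 0.00599 with the sow as a block (adjusted p = 0.554, 0.265 and 0.392 from limma).

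SLC3A1, the heavy chain rBAT of the cystine carrier, had probe sets that also disagreed on the sows. Probe set B gave 371, 122 and 172 with embryos, against 635, 207 and 209 with oocytes (-0.61, standard error 0.52, unadjusted p = 0.269 from limma, and unadjusted p = 0.000343 with adjusted p = 0.221 with the sow as a block). Probe set A gave 610.5, 1672 and 1392 with embryos, against 596, 1546 and 1291 with oocytes (0.086, standard error 0.42). Probe set B was highest in both horns of sow 1, where probe set A was lowest in both.

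SLC44A2, a choline carrier-like protein, gave 34.6, 15.3 and 30.0 with embryos, against 101, 30.9 and 31.1 with oocytes at C (-0.88, standard error 0.48), so that the difference came from sows 1 and 2 and was -0.082 in sow 3. The unadjusted p of C was 0.0138 with the sow as a block (adjusted p = 0.46 from limma). The other probe sets of SLC44A2 differed by 0.20 at B and -0.11 at A. SLCO3A1, a widely expressed organic anion carrier, had differences of -0.58, -0.25, -0.21 and 0.012, the last of them at its brightest probe set, A, with means of 304 ± 67.6 with embryos and 302 ± 80.8 with oocytes. The file does not say which part of the transcript a probe set reads. These genes stay uncertain, and why their probe sets disagree was not tested.

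The order of the arrays by RNA integrity was set beside the signals. Both control ratios placed the arrays in the same order, from the embryo horn of sow 2 through the embryo horn of sow 3, the oocyte horns of sows 2 and 3 and the embryo horn of sow 1 to the oocyte horn of sow 1. Probe set B of SLC3A1 and probe set C of SLC44A2 had their 6 signals in that same order. They were the only 2 of the 184 members to do so (1.09%), against 247 of all probe sets (1.03%), so that the share of the members was near that of the array. Others came close to it. In a count added after the data had been seen, at least 13 of the 15 pairs of arrays ran in that order for 16 members (8.7%), against 8.47% of all probe sets. All 16 were lower with embryos. The order itself places the embryo horn below the oocyte horn in every sow, so the count favours that direction, which is no separate result. The pairs in order were 14 for probe set C of SLC38A1, probe set C of SLC15A2 and probe sets B and C of SLC27A6, 13 for probe sets A and C of SLCO1A2 and probe set C of SLC35F5, 11 for probe set B of SLC38A1, 10 for probe set B of SLC35F5 and 9 for probe set B of SLC31A2.

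**Figure D3:**
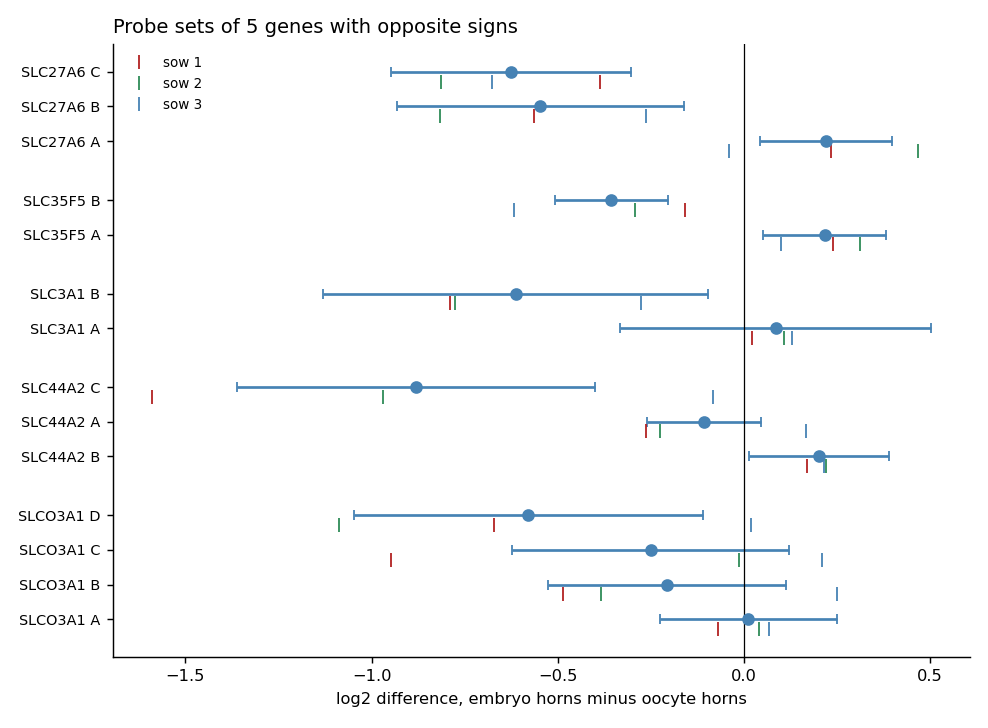
Log2 difference between horns with embryos and horns with oocytes (horizontal axis) for the 14 probe sets above the median signal of 5 genes with opposite signs; points and bars are the estimate and its standard error from limma, and coloured ticks below them are the differences within sows 1, 2 and 3. SLC27A6, SLC35F5, SLC3A1 and SLC44A2 each have a point at -0.36 or lower and another above 0, while the highest of SLCO3A1 is at 0.012.

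Sows differed more than horns for many carriers, as they did for much of the array. The shares among the carriers were near those of all probe sets or a little above them, so the counts say little about carriers as a class. The range of the 3 sow means exceeded the largest difference between the horns of any sow for 59 of the 97 members above the median signal (60.8%), against 56.9% of all probe sets above it. In a test added after the data had been seen, the sow terms of the limma fit with the block had an adjusted p under 0.05 for 26 members (14.1%), against 11.3% of all probe sets. Of the 97 brighter members 25 passed (25.8%), against 21.1% of all the brighter probe sets. The 26 probe sets belong to 21 genes, and they were highest in sow 1 for 9, in sow 2 for 8 and in sow 3 for 9.

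SLC28A3, the concentrative nucleoside carrier CNT3, gave 1604, 903 and 270.4 with embryos, against 1571, 888 and 346 with oocytes. Its sow means spanned 5.34-fold (adjusted p = 6.26e-06 from limma), while the horns of a sow differed by 0.019, 0.017 and -0.34 on the log2 scale. ABCG2, an efflux pump of the apical membrane that was read as a partner of the carriers, gave 1416, 676 and 209 with embryos, against 1341, 777 and 222 with oocytes. Its sow means spanned 6.58-fold in the same order of sows (adjusted p = 2.54e-06 from limma). The equilibrative nucleoside carrier SLC29A1 was dim, at 1.53 ± 0.751 with embryos and 1.80 ± 1.13 with oocytes.

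SLC7A9, the light chain that pairs with rBAT in the cystine carrier, gave 6.30, 56.9 and 78.4 with embryos, against 3.80, 46.5 and 82.1 with oocytes. Both horns of sow 1 were far below those of the other sows (adjusted p = 0.000140 for the sow terms from limma), at signals too dim for a fold to be measured. The brighter probe set of its partner SLC3A1 was likewise lowest in both horns of sow 1, with a span of 2.57-fold (adjusted p = 3.36e-05 from limma), whereas its other probe set was highest there. SLC36A2, a dim proton-coupled amino acid carrier, was also lowest in sow 1, at 1.80, 14.7 and 21.7 with embryos and 2.90, 12.9 and 15.6 with oocytes.

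Further members with wide spans were SLC2A12, a glucose carrier (60.7, 125 and 39.5 with embryos, 53.1, 115 and 38.7 with oocytes, 3.14-fold), SLC25A30 (2.43-fold) and SLC25A21, the mitochondrial oxodicarboxylate carrier (2.16-fold). SLC2A12 was highest in sow 2, SLC25A30 lowest in sow 3 and SLC25A21 lowest in sow 1. Both probe sets of SLC31A2 had their highest signals in sow 3, with spans of 1.81-fold and 1.82-fold, but A was lowest in sow 1 and B in sow 2. Markers of other cells moved with the sows as well. Sow 1 had the highest stroma and smooth muscle sums and the lowest epithelium sums, at 7356, 9554 and 10036 with embryos and 7547, 9825 and 9513 with oocytes in sows 1, 2 and 3. The sums of the red cell markers, 2 of 3 measured, were 423, 656 and 942 with embryos and 362, 694 and 966 with oocytes, the same order of sows as SLC7A9 and SLC36A2. Of these, ALAS2 gave 134.5, 401 and 728.5 with embryos and 70.0, 442 and 675 with oocytes. HBB did not follow that order of sows, at 289, 255 and 213 with embryos and 292, 251 and 291 with oocytes. The order of the sums thus rests on ALAS2 alone. The part of these cells in the sow differences was not tested.

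**Figure D4:**
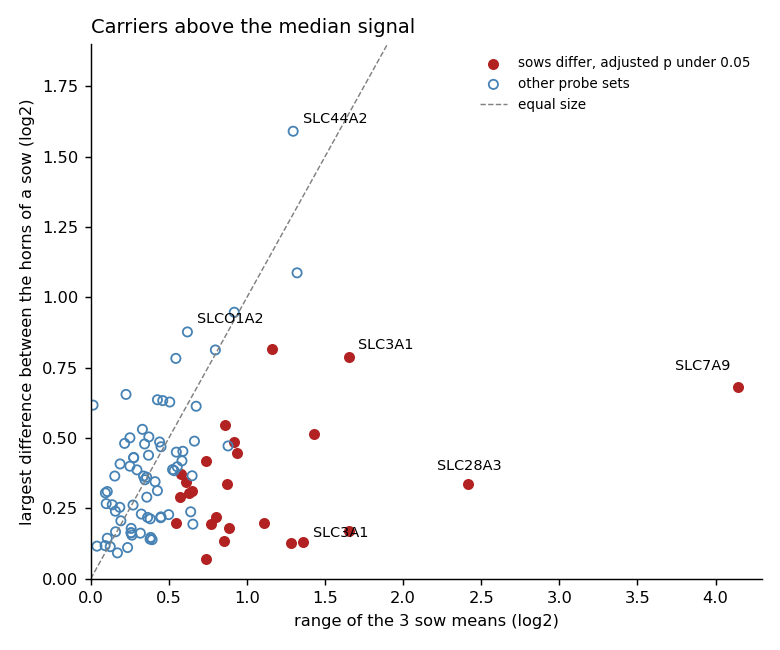
Range of the 3 sow means (horizontal axis, log2) against the largest difference between the horns of a sow (vertical axis, log2) for the 97 members above the median signal; filled points had an adjusted p under 0.05 for the sow terms and the dashed line marks equal size. Of the 97 points 59 lie to the right of the line, with SLC7A9 and SLC28A3 farthest out (the place of SLC7A9 rests on dim signals of 6.30 and 3.80 in sow 1), and SLC44A2 and SLCO1A2 are among those above it.

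**Figure D5:**
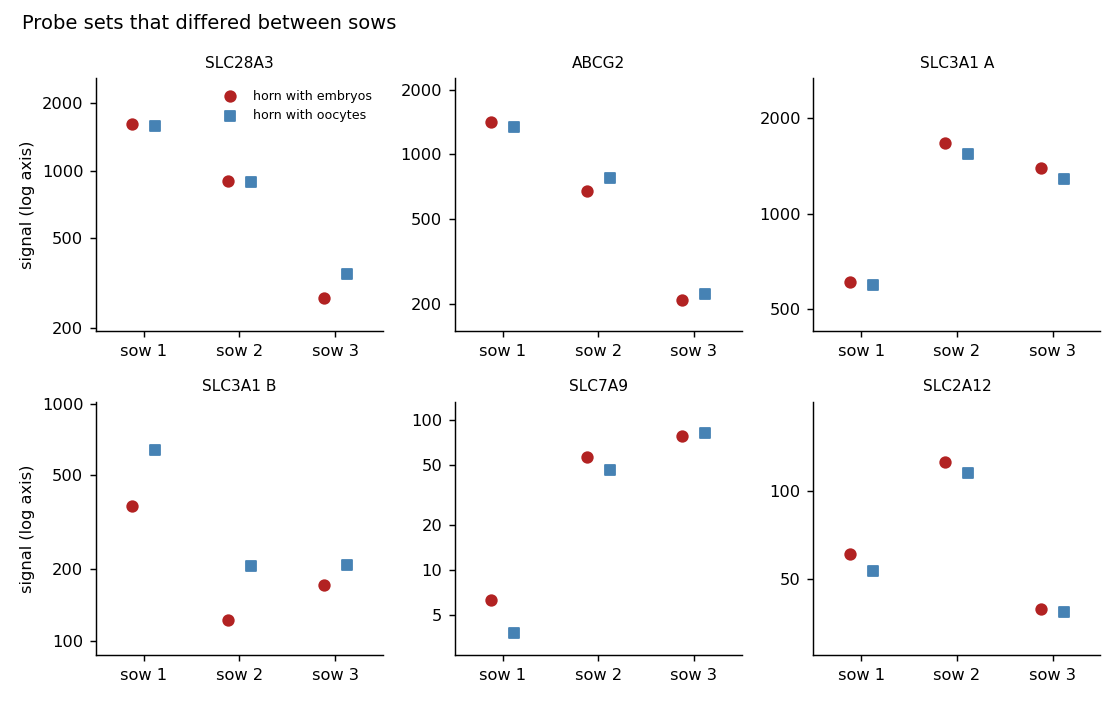
Signals (vertical axes, log scale) of 6 probe sets by sow, circles for the horn with embryos and squares for the horn with oocytes. In SLC28A3, ABCG2, SLC7A9, SLC2A12 and probe set A of SLC3A1 the horns of a sow lie close together and the sows apart, and probe set B of SLC3A1 has its squares above its circles in every sow.

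Proteins that work with the carriers showed small differences as well. Of 38 listed subunits and regulators of the sodium pump, chaperones, hexokinases, organic anion efflux pumps and carbonic anhydrases, 19 were measured. Of these, 13 were higher and 6 lower with embryos, with a median of 0.014. With limma 0 of the 19 had an unadjusted p under 0.05 without or with the block. Over all probe sets the shares were 2.88% and 8.7%, so a count of 0 among 19 says little. ATP1B1 and ATP1B3, beta subunits of the sodium pump, averaged 1672 ± 443 and 542 ± 49.9 with embryos, against 1648 ± 558 and 537 ± 34.2 with oocytes. BSG, the chaperone of lactate carriers, averaged 127 ± 19.6 with embryos and 126 ± 15.3 with oocytes. Hexokinase HK1, which traps glucose after uptake, averaged 526 ± 136 with embryos and 569 ± 121 with oocytes, and CA12, a carbonic anhydrase, 62.6 ± 5.98 with embryos and 54.3 ± 9.73 with oocytes. In every sow 4 of the 19 partners were higher with embryos (21.1%), against 14.9% of all probe sets. These were the sodium pump regulators FXYD2 (0.99) and FXYD5 (0.20), ATP1B4 (0.73) and the carbonic anhydrase CA3 (0.77), of which FXYD5 alone lay above the median signal. The efflux pump ABCB1 was dim and the only one lower in every sow (5.26%, against 14.8% of all probe sets), at 23.5 ± 11.0 with embryos and 31.3 ± 8.41 with oocytes (-0.50).

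Of 39 carriers listed for their known roles in uterine epithelium or in all cells, 24 were read on the array under their symbol. The other 15 were not analysed here, among them SLC7A2, SLC7A5, SLC38A2, SLC6A6, SLC16A1, SLC12A2, SLC40A1 and SLCO2A1. Another 13732 probe sets carry no symbol and were not searched for carriers.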

How the data were processed

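The arrays held 24123 probe sets, with intensity signals that the authors deposited as linear, arbitrary units from the MAS5 algorithm, version 5.1. Per the labels they were made from total RNA. Signals under 0.1 were set to 0.1, taken to the log2 scale and normalized by cyclic loess on all probe sets. Without the 124 controls, 23999 probe sets were tested with limma 3.58.1 in R 4.3.3, with a variance trend and Benjamini-Hochberg adjustment at 0.05. Signals printed are those deposited. Plots used matplotlib 3.10.9 in Python 3.11.15. The fit was tested on simulated data. Arrays have no depth, and their number, 3 per group, limits the precision.

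The design pairs the horns of a sow, and arrays were paired by replicate number. Deviations from the group means correlated within the 3 pairs, with r of 0.207, 0.173 and 0.100. The sow was left out of the main model, as in the study's own, and was the alternative block. Further settings were quantile normalization, no normalization beyond that deposited, equal medians, 32 added to each signal, probe sets above the median signal only, no variance trend and leaving out each array in turn.

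Members, substrate groups and lists were chosen with earlier results of these data known. Genes named are those on the study's list of altered transcripts, up to 4 per group with the smallest p above the median signal, a list of 39 known carriers, and genes with probe sets of opposite sign over 0.5 apart. SLC36A2, SLC2A12, SLC25A21, SLC25A30, SLC38A9 and other genes outside this rule were named after their values were seen. The test between sows, the comparisons with the RNA integrity order and the zinc count were added after the data had been seen.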

Additional observations from a re-analysis of the deposited data

How the results depend on the processing

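The count of members with an adjusted p under 0.05 was 0 under every alternative, as it was over all probe sets. The count of transport partners at an unadjusted p under 0.05 was also 0 throughout, against 1.95% to 8.7% of all probe sets tested. The median log2 difference of the members stayed between -0.028 and -0.010 under the other settings and between -0.022 and 0.013 when 1 array was left out. The 4 members at an unadjusted p under 0.05 (2.17%, against 2.88% of all probe sets) became 19 with the replicate block (10.3%, against 8.7%). The count was 7 without the variance trend (3.8%, against 3.73%). It was 2 among probe sets above the median signal only (2.06%, against 1.95%). When 1 array was left out it lay between 2 and 10, or 1.09% to 5.43%, against 2.31% to 4.32% of all probe sets. The cause was not tested. The block changed no adjusted call. Of 53 named probe sets above the median signal, 29 kept the sign of embryos minus oocytes under every alternative run and 24 did not, none of these 24 differing by more than 0.25. The values as deposited reversed SLC25A5, to -0.001. The other reversals came from leaving out 1 array, with log2 differences that ranged, at the probe sets with the main differences given above, from -0.23 to 0.15 for SLC15A2 (B), -0.33 to 0.11 for SLC38A1 (A), -0.31 to 0.51 for SLC3A1 (A), -0.020 to 0.21 for SLC3A2, -0.13 to 0.29 for SLC7A7, -0.10 to 0.18 for SLC16A13, -0.38 to 0.049 for SLC34A2, -0.22 to 0.13 for SLC41A1, -0.15 to 0.22 for SLC11A2 (A), -0.31 to 0.24 for SLC31A2 (A), -0.007 to 0.18 for SLC25A33, -0.076 to 0.31 for SLC25A38, -0.12 to 0.12 for SLC25A5, -0.022 to 0.046 for SLC25A6, -0.70 to 0.62 for SLC28A3 and -0.49 to 0.008 for SLC35B1. For SLCO3A1 they were -0.58 to 0.11 (C), -0.17 to 0.23 (A) and -0.39 to 0.093 (B), and they were -0.34 to 0.014 for SLC2A4RG, -0.26 to 0.013 for SLC9A3R2, -0.006 to 0.14 for SLC2A3, -0.22 to 0.040 for SLC2A8 and -0.12 to 0.062 for SLC5A1. With 3 sows, probe sets near the background and no detection calls used, a difference under about 0.5 could not be resolved for most members.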

Other observations

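A few dim members had wide differences between the horns, given as values only. SLC8B1, the mitochondrial sodium and calcium exchanger, gave 14.6, 10.5 and 11.1 with embryos in sows 1, 2 and 3, against 7.3, 2.8 and 7.9 with oocytes (1.11 on the log2 scale, standard error 0.54). SLC1A3, a glutamate carrier, gave 14.8, 12 and 12.1 with embryos, against 2.2, 9.9 and 8.5 with oocytes (1.16, standard error 0.67). SLC46A3, a lysosomal carrier, gave at its dimmer probe set 9.4, 8.6 and 4.1 with embryos, against 12.6, 15.8 and 9.9 with oocytes (-0.88, standard error 0.50). Its brighter probe set averaged 18.6 ± 0.764 with embryos and 17.8 ± 2.71 with oocytes (0.063). Apart from that brighter probe set, none overlapped between the groups after normalization and none, that one included, had an unadjusted p under 0.05 from limma.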
